A study of Mus musculus with 19 samples.

Results

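The 10 genes described here are carried at high levels by the fat cells that lie under the dermis: Adipoq, Lep, Retn, Cfd, Plin1, Cidec, Lpl, Fabp4, Lipe and Pparg. They were taken from a list of names, no threshold on their values was applied, and all 10 were found among the 34807 genes of the count table and passed the filter on low counts. The table covered bulk RNA from 19 tissue samples of female mice, of which 15 were tumours of the skin and 4 were normal skin. In the tumours BRAFV600E, an activated form of the kinase BRAF, had been switched on through an inducible Cre recombinase at 7 to 20 weeks of age. The Cre was driven by the involucrin promoter (Ivl, 6 tumours), which is active in the suprabasal layers and in the basal keratinocytes already committed to differentiate, or by the keratin promoters K5 (5 tumours) and K14 (4 tumours), which are active in basal keratinocytes. The methods section of the paper gives tamoxifen as the inducer for the Ivl driver and 4-hydroxytamoxifen for K5 and K14. Both were put on the shaved back, and inducer and driver cannot be told apart here. The normal skin is labelled WT, with no age given for it. Cre was therefore targeted to keratinocytes in every tumour, and none of the 3 drivers is directed at fat cells. The labels call the tumours squamous cell carcinoma, and a tumour sample holds whatever surrounding tissue was cut out with it.

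White adipocytes fill most of their volume with a single droplet of triglyceride. Lipoprotein lipase frees fatty acids from circulating lipoproteins, binding proteins carry them inside the cell, perilipin and CIDE proteins coat and enlarge the droplet, and hormone-sensitive lipase helps to break it down again, while PPARγ maintains the whole programme and the cell secretes hormones such as adiponectin and leptin. The layer of dermal fat thickens and thins with the hair cycle.

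The deposited counts, adjusted for batch by the authors, totalled 45715309 to 72609771 per library. Reads and counts given below are these adjusted values. Values are given as CPM, the usual depth-scaled read count, with library sizes corrected by edgeR's TMM method. Taken as a number of reads, a count of 0 allows a level of up to 3 counts, or 0.0281 to 0.076 CPM depending on the library. The intervals implied by such floors cover counting error only and not the adjustment for batch. Changes are log2 fold changes with their standard error (SE) from edgeR's quasi-likelihood test, and a gene was called where its Benjamini-Hochberg adjusted p over all genes tested was under 0.05. Because nothing in the labels ties tumours to separate animals, the p-values measure the spread between these samples, part of which may be technical.

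4 tumour libraries stood apart from the other 15: Ivl replicates 1, 2 and 3, and K5 replicate 1. Among 13954 genes with a mean over 2 CPM, 96.6% had a mean over these 4 libraries within 0.1 log2 units of the mean over the other 15, although all 4 are tumours and the other 15 include the 4 skin samples. Of the 10 adipocyte genes, 6 lay within that window. The 4 Plin1 values averaged 9.67 CPM against 21.4 CPM in the other 15, the widest gap of the 10, whereas Fabp4 averaged 603 and 578 CPM. Within single libraries of this set the adipocyte genes also went against one another. Ivl replicate 1 held 26.5 CPM of Lep, as much as the skin, with 0 counts of Adipoq and 2 counts of Cidec. Ivl replicate 2 held 21.9 CPM of Cidec with 1 count of Adipoq and 0 of Lep. Ivl replicate 3 held 22.7 CPM of Adipoq and 188 CPM of Cfd with 1 count of Lep. In the 5 tumours outside the set with 0 counts of Adipoq, by contrast, Cidec was also at 0, Lep at no more than 0.0209 CPM and Plin1 at no more than 0.67 CPM. The authors adjusted the counts for batch, and the labels do not say which libraries formed one. A supplementary legend of the paper puts 4 libraries in batch A and 15 in batch B, without naming them. These are the sizes of the set and of the rest. Whether the set is batch A, and what the adjustment did to its values, was not tested. Each of the 10 genes is therefore tested over all 19 libraries and over the 15 outside the set, where 11 tumours remain (3 Ivl, 4 K5 and 4 K14). The set was named from the values themselves, those of the 10 genes included. The tests over 15 libraries thus follow a choice made after the data were seen, and their calls are to be read beside those over 19.

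The letters before the transcription starts of 3 of the genes are shown because most of the 10 genes were lower in the tumours and because C/EBP factors and PPARγ are the classical regulators of adipocyte genes. RefSeq promoters on GRCm38.p6 were found for 8 of the 10 genes, with 12 start sites in all; Fabp4 and Lpl had none in the table. The 250 bases before each start were searched on both strands for the C/EBP motif TTGCNNAA, the nuclear receptor half-site AGGTCA and the TATA box TATAAA, which do not overlap here. Capitals mark a match. The Lep window spans chr6:29059971-29060220 on the plus strand, the window of Pparg start site 3 chr6:115421816-115422065 on the plus strand, and the Adipoq window, which holds none of the 3 motifs, chr16:23146286-23146535 on the plus strand.
Lep: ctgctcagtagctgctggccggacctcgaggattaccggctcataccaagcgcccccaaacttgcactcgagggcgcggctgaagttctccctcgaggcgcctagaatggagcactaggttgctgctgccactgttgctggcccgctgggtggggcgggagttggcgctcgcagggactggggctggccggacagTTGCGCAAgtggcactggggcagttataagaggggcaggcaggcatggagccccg
Pparg, start site 3: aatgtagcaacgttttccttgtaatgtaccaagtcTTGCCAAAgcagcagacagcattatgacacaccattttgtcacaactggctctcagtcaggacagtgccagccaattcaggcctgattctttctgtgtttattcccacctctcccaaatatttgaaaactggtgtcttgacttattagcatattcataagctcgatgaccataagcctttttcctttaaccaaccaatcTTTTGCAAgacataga
Adipoq: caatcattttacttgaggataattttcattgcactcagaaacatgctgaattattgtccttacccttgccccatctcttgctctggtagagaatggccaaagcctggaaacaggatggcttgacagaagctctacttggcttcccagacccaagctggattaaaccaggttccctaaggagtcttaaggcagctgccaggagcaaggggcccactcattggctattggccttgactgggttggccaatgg

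The C/EBP motif was in 4 of the 12 windows (Lep, Plin1, start site 2 of Cidec and start site 3 of Pparg) and in 9.56% of all 32851 promoter windows. In Lep the match begins 55 bases before the start and reads alike on both strands. The half-site was in 2 of the 12 windows, both of Pparg, and in 14.0% of all windows, and the TATA box in 1, at start site 2 of Pparg, against 12.4%. A match is a description of the letters and not of a bound site.

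In normal skin all 10 genes were expressed in each of the 4 samples. Per kilobase of the longest coding transcript, mean levels fell in the order Fabp4 (246 ± 206 CPM per kb, SD, n = 4), Cfd (150 ± 89.3), Lpl (78.8 ± 34.3), Cidec (25.5 ± 16), Adipoq (18.9 ± 9.07), Plin1 (17.4 ± 6.24), Lipe (17.3 ± 6.96), Pparg (14.3 ± 4.82), Retn (11.9 ± 5.19) and Lep (5.09 ± 2.78). The ranges of neighbours in this order overlapped, except those of Lpl and Cidec. For each of the 10 genes, skin replicates 3 and 4 were both above replicates 1 and 2, an arrangement held by 21.2% of all genes. The ratio of the means of these 2 pairs ran from 1.59 for Pparg to 6.11 for Fabp4. Skin thus differed between samples by up to 7.14 times for Fabp4 and by 2.3 to 4.26 times for the other 9, and this spread enters every comparison with the tumours.

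**Figure D1:**
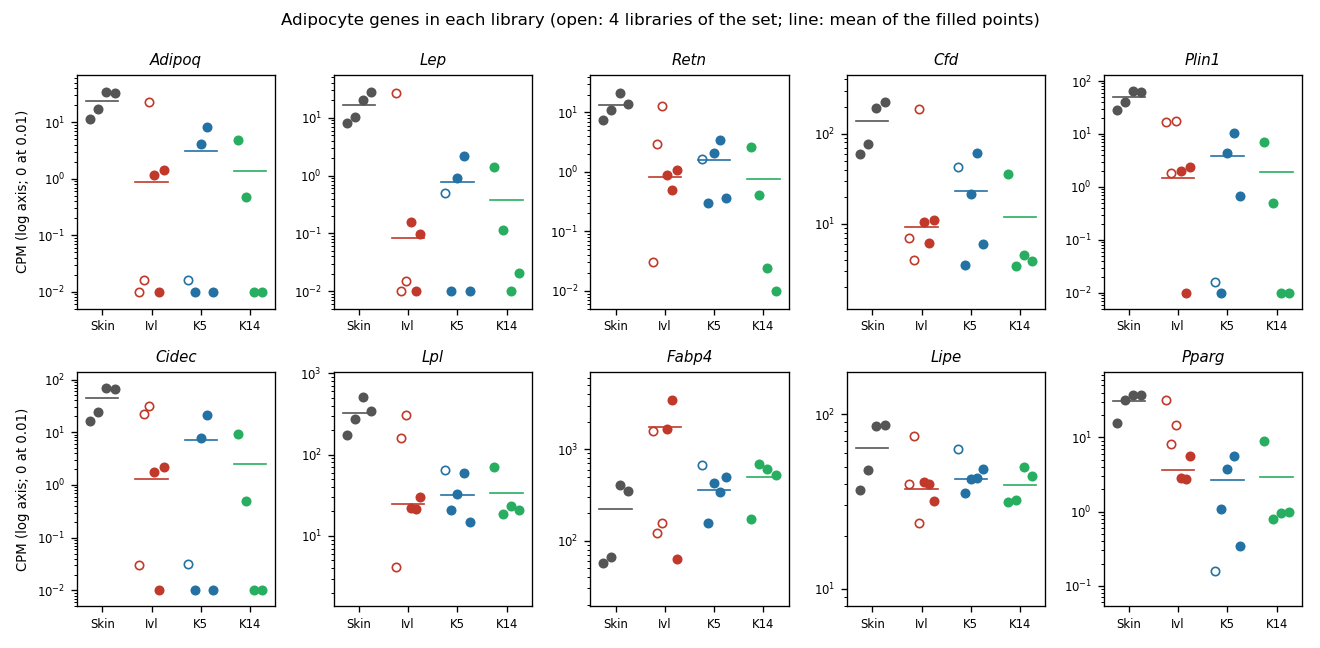
CPM of each of the 10 genes in every library on a log axis, with a count of 0 drawn at 0.01 CPM in the panels that reach it. Points are libraries, open points are the 4 libraries of the set and lines are means of the filled points; in Adipoq the skin points lie at 11.7 to 34.8 CPM and the filled tumour points at 0 to 8.37 CPM, whereas the Fabp4 points of skin and tumours overlap.

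Among the secreted products, Adipoq, which encodes the hormone adiponectin, was at 11.7, 17.2, 34.8 and 33.8 CPM in the 4 skin samples. Outside the set the Ivl tumours held 1.19, 0 and 1.41 CPM, the K5 tumours 0, 4.09, 8.37 and 0 CPM, and the K14 tumours 4.95, 0.484, 0 and 0 CPM. All 11 tumours were below all skin samples, and 5 of them had no Adipoq read. The K5/K14 tumours, which the study treated as 1 class, were 10.9-fold lower than skin over the 15 libraries (log2 fold change -3.45, SE 1.4, edgeR adjusted p = 0.0444). That call sat close to the threshold: it was lost in 10 of the 12 fits that left out 1 library each, with adjusted p-values of 0.0532 to 0.0888. Over all 19 libraries the value was -3.62 (SE 1.67, adjusted p = 0.0675). For Ivl it was -4.80 (SE 2.22, adjusted p = 0.0807) over 15 libraries and -2.53 (SE 1.86, adjusted p = 0.27) over 19.

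Lep encodes leptin, the hormone that reports fat stores to the brain. It was at 8.27, 10.2, 20.3 and 27.6 CPM in skin, and at 0 to 2.15 CPM in the 11 tumours outside the set. In no other gene of the 10 was the lowered level so far from that of skin: the mean of those 3 Ivl tumours was 0.512% of the skin mean and that of the 8 K5/K14 tumours 3.46%. The log2 fold change over 15 libraries was -7.53 in Ivl (SE 2.06, edgeR adjusted p = 0.00783), where the 3 tumours held 8, 0 and 5 reads. In K5/K14 it was -4.84 (SE 1.16, adjusted p = 0.0025), and over 19 libraries -4.87 (SE 1.65, adjusted p = 0.0172). Ivl replicate 1, at 26.5 CPM, brought the Ivl value over 19 libraries to -1.89 (SE 1.75, adjusted p = 0.378).

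Retn encodes resistin, a hormone of mouse fat, and Cfd encodes adipsin, or complement factor D. Retn was at 7.61 to 21.5 CPM in skin and at 0 to 3.48 CPM in the 11 tumours, with no overlap. It was 11.7-fold lower in K5/K14 (log2 fold change -3.54, SE 0.93, edgeR adjusted p = 0.00447) and 16.6-fold lower in Ivl (-4.05, SE 1.41, adjusted p = 0.026) over the 15 libraries. The Ivl call was lost when any 1 of the 3 Ivl tumours was left out, and over 19 libraries, where the value was -2.16 (SE 1.19, adjusted p = 0.15). In K5/K14 it was -3.47 (SE 1.08, adjusted p = 0.0102) over 19.

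Cfd was the most abundant secreted product, at 59.1, 77.7, 192 and 225 CPM in skin. In the K5 tumours outside the set it was at 3.47, 21.3, 60.9 and 5.98 CPM, so that K5 replicate 4 reached the lowest skin sample. The K14 tumours held 35.5, 3.43, 4.46 and 3.84 CPM, and the 3 Ivl tumours 10.4, 6.14 and 10.9 CPM. Unlike Adipoq and Lep, Cfd had reads in every library. It was lower in K5/K14 by 2.99 on the log2 scale, with a value of -2.99 (SE 0.79, edgeR adjusted p = 0.005) over 15 libraries and -2.78 (SE 0.99, adjusted p = 0.0223) over 19. Over 19, the call was lost without skin replicate 3 or 4 (adjusted p = 0.0507 and 0.0609). In Ivl over 15 libraries Cfd fell by 3.92 on the log2 scale (SE 1.2, adjusted p = 0.0149), a call lost without Ivl replicate 5 and over 19 libraries (-1.87, SE 1.11, adjusted p = 0.177).

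The genes of the lipid droplet were low in many of the same tumours. Plin1, the perilipin that guards the droplet of the fat cell, was at 28.5, 40.6, 65.5 and 61.8 CPM in skin. It was at 2.00, 0 and 2.35 CPM in the 3 Ivl tumours, 0, 4.36, 10.5 and 0.67 CPM in the 4 K5 tumours and 7.20, 0.507, 0 and 0 CPM in the K14 tumours. Plin1 was also the 1 gene of the 10 for which all 6 Ivl tumours lay under all skin samples, the set included, since its highest value there was 17.7 CPM. K5/K14 tumours were 16.9-fold lower than skin over 15 libraries (-4.08, SE 1.31, edgeR adjusted p = 0.015) and 19-fold lower over 19 (-4.25, SE 1.37, adjusted p = 0.0135). For Ivl the values were -5.07 (SE 2.06, adjusted p = 0.0516) and -2.84 (SE 1.53, adjusted p = 0.141).

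Cidec, which lets small droplets fuse into a large one, was the most variable of the 10 among K5/K14 tumours. Skin held 16, 24.5, 68.2 and 66.9 CPM. K5 replicate 4 held 21.0 CPM, within the range of skin, K14 replicate 1 held 9.35 CPM, K5 replicate 3 held 7.72 CPM, and the other 5 K5/K14 tumours outside the set held 0 to 0.507 CPM. With that spread Cidec passed the test in neither class (-3.18, SE 1.5, edgeR adjusted p = 0.0764 in K5/K14, and -5.07, SE 2.42, adjusted p = 0.0904 in Ivl, over 15 libraries). Over 19 the values were -3.36 (SE 1.63, adjusted p = 0.0809) and -2.21 (SE 1.82, adjusted p = 0.321). Within the 15 libraries but without K5 replicate 4 the K5/K14 value was -4.12 and passed.

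**Figure D2:**
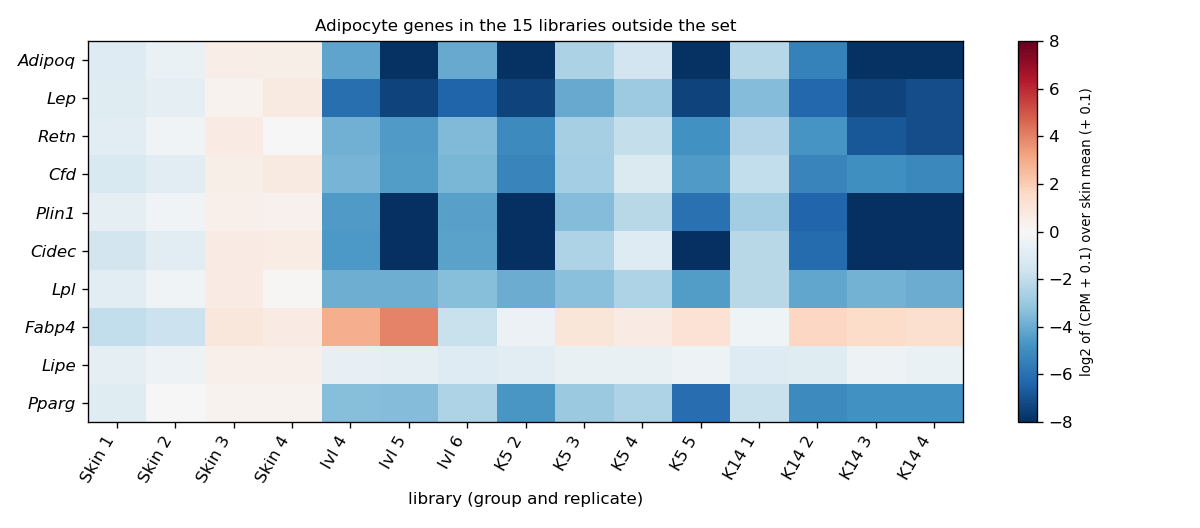
Level of each gene in each of the 15 libraries outside the set, as the log2 of CPM + 0.1 over the mean of the 4 skin samples + 0.1; blue is below and red above skin, and the colour scale ends at -8 and 8. K5 replicates 3 and 4 and K14 replicate 1 are the palest tumours for Adipoq, Lep, Retn, Cfd, Plin1, Cidec and Lpl, the Fabp4 row is red in most tumours, and the Lipe row is nearly even.

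Lpl, the lipase that supplies the cell with fatty acids, had the smallest adjusted p of the 10 in both classes over the 15 libraries. It was at 175, 272, 510 and 339 CPM in skin and at 14.7 to 70.7 CPM in the 11 tumours. These tumours kept 9.36% of the mean skin level, but none was near 0. Over 15 libraries the log2 fold change was -3.32 in K5/K14 (SE 0.41, edgeR adjusted p = 9.53e-06) and -3.72 in Ivl (SE 0.61, adjusted p = 0.000184), and both calls held when each library was left out. Over 19 it was -3.16 in K5/K14 (SE 0.74, adjusted p = 0.00165) and -1.84 in Ivl (SE 0.82, adjusted p = 0.0865), where Ivl replicates 2 and 3 held 159 and 308 CPM.

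Fabp4, the fatty acid binding protein of adipocytes, went the other way. It was at 57.3, 66.6, 409 and 347 CPM in skin. The 3 Ivl tumours outside the set held 1684, 3474 and 63.7 CPM, and in the set Ivl replicate 1 held 1598 CPM. Ivl replicate 5, with the highest Fabp4 of all 19 libraries, had no read of Adipoq, Lep, Plin1 or Cidec. The 8 K5/K14 tumours outside the set held 158 to 697 CPM, overlapping skin. Over 15 libraries Fabp4 was 7.91-fold higher in Ivl than in skin (2.98, SE 0.99, edgeR adjusted p = 0.0221), although Ivl replicate 6 lay within the skin range, and the call was lost without Ivl replicate 5 (1.99, adjusted p = 0.124), skin replicate 1 or skin replicate 2. Over 19 libraries the value was 2.43 (SE 0.98, adjusted p = 0.06). In K5/K14 it was 0.96 (SE 0.81, adjusted p = 0.301) over 15 libraries and 1.05 (SE 0.87, adjusted p = 0.296) over 19. Fabp4 is also made by capillary endothelium and macrophages. The summed level of 8 endothelial markers was 121, 133 and 214 CPM in Ivl replicates 4, 5 and 6, against 70 to 372 CPM in skin. That of 6 macrophage markers was 136, 126 and 121 CPM, against 72 to 622 CPM. In Ivl replicate 1 the 2 sums were 92.6 and 120 CPM. Skin replicates 1 and 2, the skin samples low in Fabp4, held 70 and 117 CPM of the endothelial and 107 and 72 CPM of the macrophage markers. The part of these cells in the Fabp4 level was not tested.

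Lipe encodes hormone-sensitive lipase, and changed least. Skin held 36.7, 48.1, 86.0 and 86.8 CPM and the 11 tumours 31.5 to 49.6 CPM, so the groups overlapped. The level was 1.58-fold lower in K5/K14 (-0.66, SE 0.20, edgeR adjusted p = 0.00973) and 1.72-fold lower in Ivl (-0.78, SE 0.26, adjusted p = 0.0196, lost without Ivl replicate 6) over 15 libraries. Over 19 neither call was made (-0.57, SE 0.25, adjusted p = 0.0568, and -0.63, SE 0.28, adjusted p = 0.0798), and both were made under another scaling of the libraries (adjusted p = 0.0262 and 0.0406). In exons Lipe overlaps the antisense gene 4732471J01Rik by 918 bases, and whether reads were counted by strand is not given in the sources used here, so part of its count may belong to that gene.

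Pparg encodes the transcription factor PPARγ. It was at 15.7, 31.4, 37.5 and 37.3 CPM in skin, at 2.80, 2.72 and 5.53 CPM in the 3 Ivl tumours and at 0.346 to 8.91 CPM in the 8 K5/K14 tumours outside the set. Unlike the hormones it was above 0 in every library, and all 11 tumours lay under all skin samples. The fall in K5/K14 was 10.9-fold over 15 libraries (-3.44, SE 0.70, edgeR adjusted p = 0.000727) and 12.2-fold over 19 (-3.61, SE 0.81, adjusted p = 0.00113). In Ivl it was 8.27-fold over 15 (-3.05, SE 0.996, adjusted p = 0.0197), lost without Ivl replicate 4 or 5, and over 19 it was -1.47 (SE 0.89, adjusted p = 0.182). Of the 11 tumours, K14 replicate 1, K5 replicate 4, Ivl replicate 6 and K5 replicate 3 held the most Pparg. Their values were 8.91, 5.53, 5.53 and 3.75 CPM, and their summed sebocyte markers, also the highest of the 11, were 430, 88, 178 and 119 CPM. The part of sebocytes in the Pparg level was not tested.

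**Figure D3:**
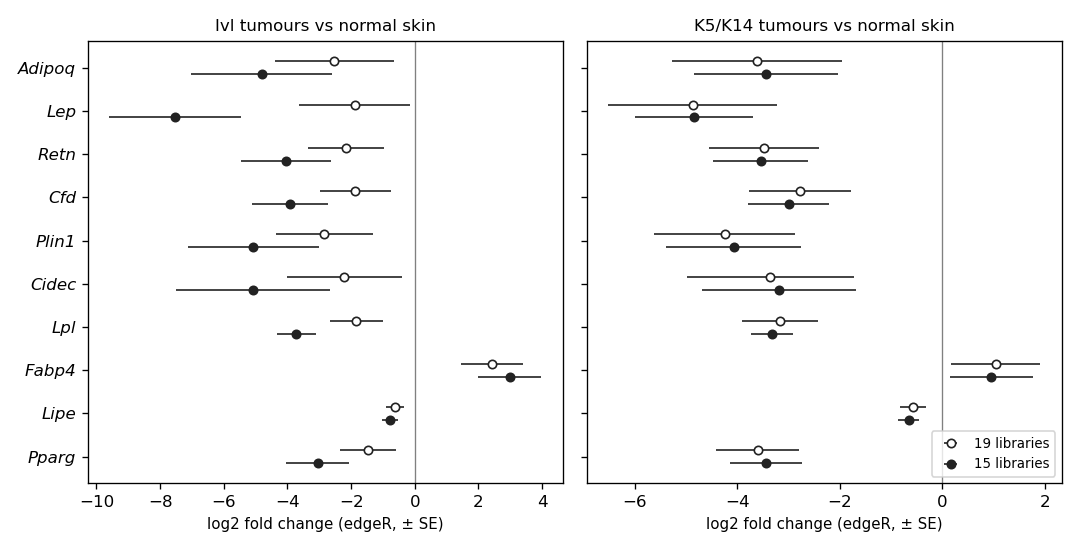
Log2 fold change of each gene against normal skin with its SE from edgeR, for Ivl (left) and K5/K14 tumours (right), over 19 libraries (open) and 15 libraries (filled); the grey line is no change. The filled K5/K14 points lie near the open ones, while in Ivl the filled points lie farther from 0 for all 10 genes.

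Counted over the 10 genes, K5/K14 tumours had 6 lower than skin over 19 libraries (Lep, Retn, Cfd, Plin1, Lpl and Pparg) and 0 higher. Of all 32031 genes tested, 38.9% were lower and 23.2% higher. Over the 15 libraries 8 were lower, Adipoq and Lipe being added, and 0 higher, against 42.3% and 23.9% of 31971 genes. In Ivl tumours 0 of the 10 passed over 19 libraries, where 15.5% of all genes were lower and 20.4% higher by edgeR, and 3 of the 10 had an unadjusted p under 0.05 (Lpl, Fabp4 and Lipe). DESeq2 called the same 3, Lpl and Lipe as lower and Fabp4 as higher. Over the 15 libraries 6 were lower (Lep, Retn, Cfd, Lpl, Lipe and Pparg) and Fabp4 was higher, against 32.7% and 22.2% of all genes, and without Ivl replicate 5 the count was 3. The median log2 fold change of the 10 was -3.38 in K5/K14 and -3.98 in Ivl over 15 libraries, where the median of all genes was -0.64 and -0.66. Over 19 libraries the medians were -3.41 and -1.88, beside -0.60 and -0.46 for all genes. Both comparisons use the same 4 skin samples.

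All tumours lay under all skin samples in 6 of the 10 genes for K5/K14 (Adipoq, Lep, Retn, Plin1, Lpl and Pparg), over 19 and over 15 libraries alike, an arrangement found in 24.6% and 28.2% of all genes. For Ivl it held for 1 gene over 19 libraries, against 9.01% of all genes, and for 8 over 15, against 35.5%, with only 3 tumours left to be under the skin. In bulk RNA, fewer adipocytes, less of these RNAs in each adipocyte and less of them from other cells cannot be told apart.

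None of the 10 passed between Ivl and K5/K14 tumours in edgeR, over 19 or 15 libraries, where 2.36% and 0.410% of all genes did. In each case 1 of the 10 had an unadjusted p under 0.05, Pparg over 19 and Fabp4 over 15. Pparg had the smallest p over 19 libraries, at 4.39-fold higher in Ivl (2.13, SE 0.73, edgeR adjusted p = 0.113), and passed with DESeq2 (adjusted p = 0.0329) and without K14 replicate 1 (2.71, adjusted p = 0.0404). Over 15 libraries its value was 0.40 (SE 0.78, adjusted p = 0.929). The direction of 7 of the 10, namely Adipoq, Lep, Retn, Cfd, Plin1, Cidec and Lpl, was Ivl over K5/K14 in 19 libraries and Ivl under K5/K14 in 15, in neither case past the test. Fabp4 was higher in Ivl in both, by 1.38 (SE 0.71, adjusted p = 0.279) and 2.02 (SE 0.79, adjusted p = 0.348) on the log2 scale. The paper reports tumour onset within days of induction in its K5 and K14 models and a much longer latency in its Ivl model. Time since induction therefore cannot be told apart from the driver in this comparison, and its part was not tested. Between K5 and K14 tumours also 0 of the 10 passed in edgeR, and 0 had an unadjusted p under 0.05, with 0% and 0.0532% of all genes called over 19 and 15 libraries. In that comparison 1945 genes had an unadjusted p under 0.05 over 19 libraries, and DESeq2 called 201 genes, none of them among the 10.

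Tumours of 1 driver covered a wide range. Of the 11 outside the set, K5 replicate 4, K14 replicate 1 and K5 replicate 3 held the 3 highest levels of Adipoq, Lep, Retn, Cfd, Plin1, Cidec and Lpl. K5 replicate 4 was the highest in 6 of the 10 genes and K14 replicate 1 in 2. At the other end, Ivl replicate 5, K5 replicate 2, K14 replicate 3 and K14 replicate 4 each had 4 of the 10 genes at 0 counts, and K5 replicate 5 had 3. Adipoq and Cidec were at 0 in all 5 of these tumours. The 3 remaining tumours, Ivl replicates 4 and 6 and K14 replicate 2, lay between, with Plin1 at 0.507 to 2.35 CPM.

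Outside the set, sums of muscle, sebocyte and macrophage markers were higher in the 3 tumours highest for the adipocyte genes than in most others. The order differed, and Ivl replicate 6 was also high for muscle and sebocyte markers. Sums for the other cell types did not set these 3 tumours apart. The summed level of 8 skeletal muscle markers was 2411 to 7273 CPM in skin. In the 3 tumours highest for the adipocyte genes it was 82.6 CPM (K5 replicate 4), 531 CPM (K14 replicate 1) and 179 CPM (K5 replicate 3), in Ivl replicate 6 it was 598 CPM, and in the other 7 tumours outside the set 10.2 to 24.9 CPM. Over 15 libraries 7 of the 8 muscle markers were lower than skin in K5/K14, where 42.3% of all genes were, and 2 of 8 in Ivl, where 32.7% were. Over 19 libraries 8 and 0 were lower. The 8 sebocyte markers summed to 206 to 704 CPM in skin, to 430 CPM in K14 replicate 1, 178 CPM in Ivl replicate 6, 119 CPM in K5 replicate 3 and 88.0 CPM in K5 replicate 4, and to 4.47 to 64.0 CPM in the others. The 6 macrophage markers summed to 450 and 622 CPM in skin replicates 3 and 4, the samples higher for all 10 adipocyte genes, and to 107 and 72 CPM in skin replicates 1 and 2. Among the 11 tumours their sum was highest in the same 3, at 224 CPM (K5 replicate 4), 220 CPM (K5 replicate 3) and 219 CPM (K14 replicate 1), against 99.4 to 142 CPM in the other 8. The 6 keratinocyte markers ran the other way, at 5145 to 10650 CPM in skin and 49214 to 98580 CPM in these 11 tumours, and all 6 were higher in K5/K14 and 5 of 6 in Ivl, where 23.9% and 22.2% of all genes were. No gene of these 4 lists was at 0 in all libraries of a group. The sums of 6 fibroblast markers (818 to 18169 CPM in skin, 1469 to 12559 CPM in these tumours) and of 7 markers of growing hair (38.1 to 4648 and 91.9 to 1912 CPM) overlapped between skin and tumours. The fibroblast sum was 12559, 5428 and 7085 CPM in K14 replicate 1, K5 replicate 3 and K5 replicate 4. It was 9883 CPM in K5 replicate 2 and 11226 CPM in K14 replicate 2. The sum of 8 endothelial markers was 357, 299 and 417 CPM in the same 3 tumours, against 415 and 410 CPM in K14 replicates 3 and 4. The part of these tissues in the result was not tested, and the composition of the excised tissue cannot be told apart from the genotype here.

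**Figure D4:**
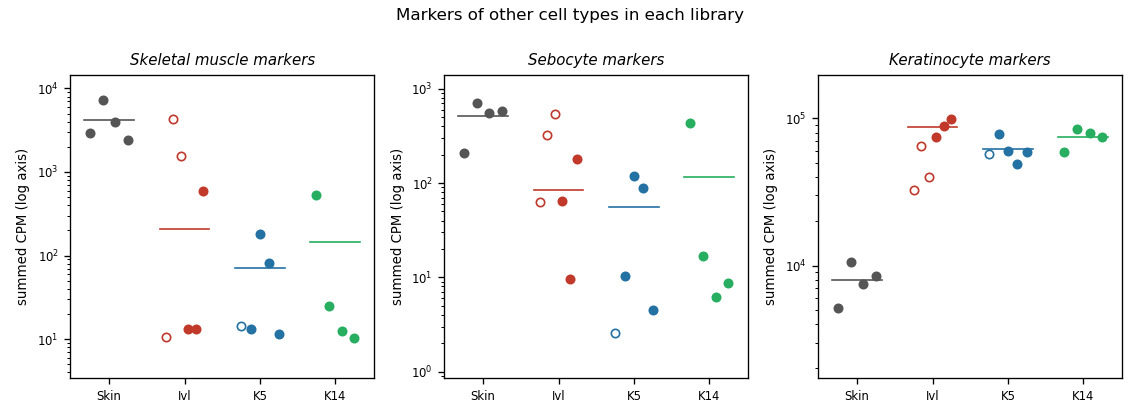
Summed CPM of the markers of skeletal muscle, sebocytes and keratinocytes in each library on a log axis, with open points for the 4 libraries of the set and lines for the means of the filled points. Muscle sums are 2411 to 7273 CPM in skin and at most 598 CPM in the filled tumour points, and keratinocyte sums are higher in all tumours than in all skin samples.

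The wider machinery of the fat cell was examined in the same fits, over the 15 libraries unless stated. For each count, the share of all genes is 42.3% lower and 23.9% higher in K5/K14, and 32.7% lower and 22.2% higher in Ivl. Of 12 genes of fatty acid uptake and triglyceride synthesis, 6 fell in both tumour classes: Cd36, Slc2a4, Gpd1, Gpam, Lpin1 and Aqp7. The 6 of 12 are near the 42.3% of all genes lower in K5/K14, and over 19 libraries 4 were lower in Ivl, Cd36 and Gpd1 being lost. Aqp7, the glycerol channel of adipocytes, was 8.29-fold lower in K5/K14 (edgeR adjusted p = 3.79e-07) and 11.2-fold lower in Ivl (adjusted p = 8.58e-06). Gpd1, which makes the glycerol backbone, was 12.2-fold lower (adjusted p = 0.00807) and 20.2-fold lower (adjusted p = 0.0336). Gpihbp1, which holds lipoprotein lipase on capillary endothelium, rose 7.00-fold in K5/K14 (adjusted p = 0.00305) while Lpl fell, with values of 0.87 to 6.45 CPM in skin and 7.34 to 42.3 CPM in the 8 tumours. In Ivl its value was -0.06 (SE 0.76, adjusted p = 0.947). The median of the 12 was -1.86 in K5/K14 and -1.61 in Ivl.

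Of 9 genes of fatty acid synthesis, 7 fell in each class and 0 rose, with medians of -1.59 and -1.63. Fasn, the fatty acid synthase, was 3.02-fold lower in K5/K14 (edgeR adjusted p = 1.79e-05) and 3.09-fold lower in Ivl (adjusted p = 0.000391), and Scd1, a desaturase that sebocytes also make, 13.4-fold (adjusted p = 1.47e-05) and 13.0-fold lower (adjusted p = 0.000694). Over 19 libraries 0 of the 9 passed in Ivl.

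Of 7 genes that control lipolysis, 5 fell in each class and 1, Abhd5, rose. Adrb3, the β3-adrenergic receptor that starts lipolysis, was 9.40-fold lower in K5/K14 (edgeR adjusted p = 3.15e-06) and 15.7-fold lower in Ivl (adjusted p = 4.1e-05). Pnpla2, the adipose triglyceride lipase, was 2.83-fold and 3.2-fold lower (adjusted p = 0.000102 and 0.000813). Abhd5, its co-activator, which keratinocytes also need, was 3.75-fold and 3.4-fold higher (adjusted p = 1.61e-08 and 1.88e-07). The medians of the 7 were -1.98 and -1.87. Over 19 libraries 0 of the 7 were lower in Ivl, and Abhd5 was still higher.

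Of 8 transcription factors of adipogenesis beside Pparg, Klf15, Ebf1, Ebf2 and Zfp423 fell and Cebpb rose in both classes, Klf15 being lost in Ivl over 19 libraries. Cebpa, the partner of PPARγ, was called in neither class, with values of 0.43 in K5/K14 (SE 0.18, edgeR adjusted p = 0.0503) and 0.53 in Ivl (SE 0.22, adjusted p = 0.0518). Of 6 genes listed for adipocyte progenitors, Ly6a rose in both classes, Cd34 and Pi16 fell in K5/K14, and Pdgfra and Dlk1 fell in Ivl, the latter 2 lost over 19 libraries. The paper names Ly6a among the genes enriched in these tumours and followed its RNA there by in situ hybridisation. Which cells carried the Ly6a reads was not tested here. The 6 genes of brown and beige fat gave medians of -0.02 in K5/K14 and 0.00 in Ivl, with calls in both directions. Ppargc1a and Cox7a1, genes of mitochondrial metabolism that muscle also expresses, fell in both classes, by 4.39 and 3.88 on the log2 scale in K5/K14 (edgeR adjusted p = 0.000966 and 9.18e-05) and with values of -3.4 and -3.002 in Ivl (adjusted p = 0.0399 and 0.0106), the Ivl calls being lost over 19 libraries. Prdm16 fell in K5/K14 and Dio2 rose in Ivl. Ucp1 of that list was higher in both classes at levels of 0 to 0.0674 CPM in skin and 0.0903 to 1.07 CPM in the 11 tumours, at most 46 reads in a library.

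Of the receptors for these hormones and for insulin, Adipor1 and Adipor2 rose in both classes and Lepr and Insr fell. Adipor1, a receptor for adiponectin, was 2.15-fold higher in K5/K14 (edgeR adjusted p = 8.19e-07) and 2.19-fold higher in Ivl (adjusted p = 5.82e-06). Lepr, the leptin receptor, was 7.80-fold lower in K5/K14 (adjusted p = 3.24e-05) and 3.93-fold lower in Ivl (adjusted p = 0.0109), where the call was lost over 19 libraries (adjusted p = 0.106).

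Close relatives of the 10 genes are used by other cells, and they did not share 1 direction. Of 18 family members listed, 16 were tested, of which 4 rose and 6 fell in K5/K14 and 4 rose and 4 fell in Ivl. Over 19 libraries 3 rose and 0 fell in Ivl. Fabp5, the binding protein of keratinocytes, was at 680 to 864 CPM in skin and 7637 to 10832 CPM in the 11 tumours, 12.1-fold higher in K5/K14 (edgeR adjusted p = 4.9e-10) and 12.3-fold higher in Ivl (adjusted p = 1.64e-09). Plin4 followed Plin1, at 102 to 240 CPM in skin and 1.24 to 23.3 CPM in these tumours, whereas Plin2, found in most cells with droplets, gave 0.62 (SE 0.38, adjusted p = 0.162) in K5/K14 and -0.13 (SE 0.47, adjusted p = 0.82) in Ivl. Cidea, which mouse sebaceous glands also make, was at 13.3 to 46.1 CPM in skin and 24.5 to 66.1 CPM in the tumours (0.64, SE 0.29, adjusted p = 0.0682 in K5/K14). Ppard, the family member of keratinocytes, rose 5.62-fold in K5/K14 (adjusted p = 4.07e-08) and 4.82-fold in Ivl (adjusted p = 4.69e-07), and Ppara fell 9.77-fold and 10.1-fold (adjusted p = 4.37e-07 and 2.71e-05). Retnla, a relative of Retn made by macrophages and fat tissue, was 23.2-fold lower in K5/K14 (edgeR adjusted p = 0.0186). Its skin values were 3.53, 2.32, 133 and 75.7 CPM, so the fold rests on skin replicates 3 and 4. K5 replicate 4 (5.67 CPM) and K14 replicate 1 (10.8 CPM) lay above skin replicates 1 and 2.

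**Figure D5:**
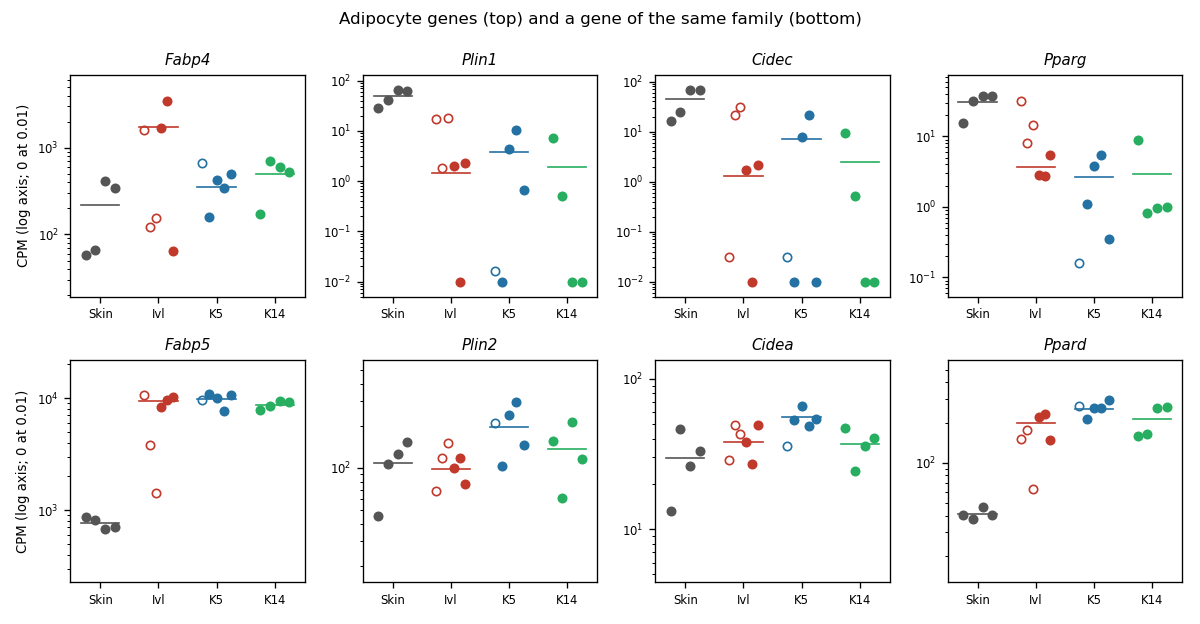
CPM in each library on a log axis for 4 of the adipocyte genes (top) and a gene of the same family (bottom), with open points for the 4 libraries of the set, lines for the means of the filled points and a count of 0 drawn at 0.01 CPM. Fabp5 and Ppard lie above skin in all tumours, Plin1 lies below skin in all tumours, and Plin2 and Cidea overlap with skin.

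Outside these lists, the genes most like the 10 were sought by Pearson's r with the mean log2 CPM of the 10, among 15248 genes with a mean of at least 1 CPM. Over the 19 libraries they were Chrdl1 (r = 0.928), Lbp, Fam198a, Amigo2, Fmo1, Tnxb, Atp8b4, C4b, Cyp1b1 and Lfng (r = 0.913). Over the 15 tumours they were Lbp (r = 0.918), Chrdl1, Epha3, Mgp, Penk, Serpina3n, Clec12a, Ccn3, Pctp and Cyp1a1 (r = 0.870). Over the 11 tumours outside the set, a choice made after the values were seen, the closest were Ces1d (r = 0.964), Atp8b4, Cd209a, Car3, Ccr2, Coro1a, Cd52, Iqgap2, Klhdc7a and Cyp2e1 (r = 0.941). Ces1d, a carboxylesterase abundant in fat, averaged 44.3 CPM in skin and 2.12 CPM in the 11 tumours, and Car3, a carbonic anhydrase abundant in fat and muscle, 410 and 17.7 CPM. Cd209a, Ccr2, Coro1a and Cd52 of the same 10 are genes of immune cells; Ccr2, a chemokine receptor of monocytes, averaged 39.8 and 11.5 CPM. Only Chrdl1 and Lbp stood in both of the first 2 groups, and Atp8b4 in the first and the last. The points of each r share libraries and depth with the 10 genes, and the largest r among so many genes is high by selection.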

How the data were processed

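Whole-tissue poly(A) RNA of 15 tumours and 4 skin samples was sequenced as paired-end reads with a strand-specific kit. The labels name 2 facilities, while the methods section places the poly(A) libraries at the CRUK Manchester Institute. As the labels and the methods section state, the authors checked reads with FastQC 0.11.8, trimmed them with Trim Galore, aligned them with HISAT2 2.1.0 to GRCm38, counted them with featureCounts (Subread 1.6.3) and adjusted the counts for batch with ComBat-seq of the sva package. The deposited values are therefore estimated counts; all were whole numbers and none were rounded here. 0 columns of the table were left out.

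A gene was kept if any 1 library held 5 counts or more, which left 32031 of 34807 genes over 19 libraries and 31971 over 15. Changes were tested in edgeR 4.0.16 (R 4.3.3) with TMM factors and the quasi-likelihood test. All libraries entered 1 fit with no covariate and with K5 and K14 as 1 class, as in the study; a fit with 4 groups compared K5 with K14. The p-values were adjusted over all genes. The fit was tested on simulated data. DESeq2 1.42.0 was an alternative, with its own size factors. The study's methods name DESeq2; edgeR was kept as the main test for all comparisons. Gene positions and transcript lengths came from GENCODE M21 on GRCm38, which named 34694 of the gene identifiers.

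The genes named are the 10 members, genes of the lists given in the text, and the 10 genes outside all lists with the highest r over 19 libraries and over 15 tumours. The 10 over the 11 tumours outside the set were added after the values were seen. The members and lists were chosen with earlier results of these data known. Totals of 45715309 to 72609771 counts limit precision mainly for genes with few reads. Samples were grouped by their titles, and 37 pairs of replicates differed by more than counting noise (lowest chi-square per degree of freedom 25.9). Replicate numbers did not pair samples.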

Additional observations from a re-analysis of the deposited data

Results flagged for a closer look

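In each of 40 groups (10 genes in 4 groups of samples), the highest and lowest libraries were compared with the rest by Dixon's gap over range. Chance flags about 1 in 20 such groups if values follow a normal distribution. The CPM compared here were not transformed and many were skewed to high values, so that rate is no yardstick for them. In all, 13 groups were flagged, each for its highest library. The 10 genes and 4 groups share libraries, so these are not 13 separate events.

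K14 replicate 1 stood apart from the other 3 K14 tumours in 8 of the 10 genes: Adipoq at 4.95 CPM, Lep at 1.39 CPM, Retn at 2.61 CPM, Cfd at 35.5 CPM, Plin1 at 7.20 CPM, Cidec at 9.35 CPM, Lpl at 70.7 CPM and Pparg at 8.91 CPM. The nearest of the other K14 tumours were at 0.484, 0.115, 0.415, 4.46, 0.507, 0.507, 23.3 and 0.981 CPM, in the same order. The same library held 531 CPM of summed skeletal muscle markers and 430 CPM of sebocyte markers, and the part of other tissue in it was not tested.

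The other 5 were Ivl libraries of the set of 4. Ivl replicate 3 was highest for Adipoq at 22.7 CPM, Retn at 12.7 CPM and Cfd at 188 CPM, where the next Ivl tumour had 1.41, 2.99 and 10.9 CPM. Ivl replicate 1 held 26.5 CPM of Lep against 0.159 CPM in the next, and Ivl replicate 2 held 74.6 CPM of Lipe against 40.7 CPM.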

How the results depend on the processing

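With the 4 libraries that stood apart left out, members called in Ivl against skin went from 0 to 7 and all genes called from 11515 to 17566, of which 56.8% were higher before and 40.4% after. All genes called fell from 756 to 131 between Ivl and K5/K14 and rose from 0 to 17 between K5 and K14, and the Ivl to K5/K14 values turned to -1.36 (Adipoq), -2.69 (Lep), -0.51 (Retn), -0.92 (Cfd), -0.99 (Plin1), -1.89 (Cidec) and -0.41 (Lpl), and K5 to K14 to -0.07 (Lpl). For Ivl against skin, DESeq2 called 3 members, RLE scaling 1 and edgeR's own filter on low counts 1. RLE and DESeq2 moved the median of all genes from -0.46 to -0.59 (and from -0.60 to -0.71 and -0.72 in K5/K14) and brought the share of higher calls to 45.6% and 51.6%. DESeq2 also called 1 member and 2133 genes between Ivl and K5/K14 and 201 genes between K5 and K14, where a fit to the groups compared called 2.

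Leaving out 1 library gave 0 to 5 members called in Ivl against skin (5 without Ivl replicate 3; 9165 to 14757 of all genes), 5 to 8 in K5/K14 against skin (17638 to 20105), 0 to 1 between Ivl and K5/K14 (127 without K5 replicate 1 to 1328 without K14 replicate 1) and 0 between K5 and K14 (0 of all genes). Within the 15 libraries, chosen for this after seeing the data, it gave 3 to 7 in Ivl and 7 to 9 in K5/K14 against skin. Between Ivl and K5/K14, log2 fold changes that turned without 1 library spanned -1.97 to 1.82 (Adipoq), -3.37 to 3.58 (Lep), -0.16 to 1.69 (Retn), -1.42 to 1.33 (Cfd) and -0.30 to 0.06 (Lipe), with Ivl replicate 1 deciding Lep, Ivl replicate 3 the next 3, and Ivl replicates 3 and 6 and K5 replicate 1 Lipe. Between K5 and K14 they spanned -0.42 to 3.92 (Adipoq), -0.11 to 3.91 (Lep), -0.62 to 4.18 (Plin1), -0.36 to 5.07 (Cidec), -0.07 to 0.89 (Lpl) and -1.14 to 1.24 (Pparg), with K5 replicate 4 deciding the first 4 and, with K5 replicate 1, Lpl, and K14 replicate 1 deciding Pparg. None of these values passed the test. No direction against skin turned under these settings.

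Samples with the same replicate number did not deviate together (r of -0.333 to 0.212 in 25 pairs, 9 over 0.1). With the replicate number as a block, 0 members were called in Ivl and 6 in K5/K14 against skin, and 46 genes between Ivl and K5/K14; values turned for Adipoq (-0.28) and Lipe (0.01) between Ivl and K5/K14 and for Adipoq (-1.13) and Pparg (0.37) between K5 and K14. The causes of these shifts were not tested. Depth limits Adipoq, Lep, Plin1 and Cidec most, which had 0 counts in several tumours.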
